A study of Mus musculus with 7 samples.

Results

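Phosphate handling and vitamin D activation in the kidney were followed through 10 genes, read from the deposited tables by gene symbol. They encode the sodium phosphate carriers Slc34a1, Slc34a3, Slc20a1 and Slc20a2, the scaffold Slc9a3r1 (listed as Nherf1 in the deposited symbols), the receptors Pth1r and Vdr, the co-receptor Kl, and the vitamin D hydroxylases Cyp27b1 and Cyp24a1. All 10 were found among 48709 Ensembl genes of the count table, and all 10 passed the filter on low counts, which 15394 genes passed in all. The group was selected on measured values: it was built around Slc34a1, chosen by its higher level in the double knockout in these same libraries. The Slc34a1 difference between genotypes is therefore given as a description, without a test, and supports nothing else here.

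Whole kidneys of male mice were profiled by RNA sequencing. The double knockout (DKO) group, 4 libraries, lacks Hs3st3a1 and Hs3st3b1, enzymes that add 3-O-sulfate to heparan sulfate, and the wild-type (WT) group has 3 libraries. The sources used here do not give strain, age or the deleted parts of both genes, and the labels name no Cre driver. Each library's title carries its own number and was treated as 1 animal, with replicates 1 to 4 in DKO and 1, 2 and 4 in WT, so p-values measure the spread between these samples. Libraries held 18330833 to 24259231 counts. Hs3st3a1 received 1, 0, 0 and 3 reads in DKO libraries and 29, 13 and 12 reads in WT libraries. A row for a neomycin resistance cassette received 73 to 125 reads in DKO libraries and 0 in each WT library, and a LacZ row received 21, 21, 16 and 32 reads in DKO and 1, 2 and 5 reads in WT. Reads assigned to Hs3st3b1 persisted, at 1.45 to 5.56 CPM (read count relative to a library size scaled by edgeR's TMM factor) in DKO and 2.90 to 5.29 CPM in WT, and since the deleted part is not known here, that row does not check the label.

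As background, filtered phosphate is taken back by the proximal tubule, mainly through the sodium-coupled carriers NaPi-IIa (Slc34a1) and NaPi-IIc (Slc34a3) in the brush border. Parathyroid hormone, acting through Pth1r, and the bone hormone FGF23, acting through FGF receptors with Klotho (Kl), remove these carriers from the membrane. Cyp27b1 makes the active hormone 1,25-dihydroxyvitamin D, Cyp24a1 inactivates it, and the receptor Vdr mediates its effects. FGF23 lowers Cyp27b1 and raises Cyp24a1, whereas parathyroid hormone raises Cyp27b1.

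The RefSeq promoter table (GRCm38.p6) held 11 entries for 8 of the 10 genes. The 250 bases before the annotated start are shown for both renal cotransporters, which are the main carriers described here, and for Cyp27b1, which with Cyp24a1 varied most between animals. Capitals mark matches on either strand to GTTAAT, part of the site bound by HNF1 factors, to AGGTCA, the core of many nuclear receptor sites, to TATAAA, or to the DR3 element of the vitamin D receptor. No match overlapped another.
Slc34a1, chr13:55399398-55399647, plus strand: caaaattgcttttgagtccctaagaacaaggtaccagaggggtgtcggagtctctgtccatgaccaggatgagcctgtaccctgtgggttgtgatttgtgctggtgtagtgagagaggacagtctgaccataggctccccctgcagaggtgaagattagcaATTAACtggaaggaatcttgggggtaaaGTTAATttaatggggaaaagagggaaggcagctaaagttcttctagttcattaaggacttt
Slc34a3, chr2:25234235-25234484, minus strand: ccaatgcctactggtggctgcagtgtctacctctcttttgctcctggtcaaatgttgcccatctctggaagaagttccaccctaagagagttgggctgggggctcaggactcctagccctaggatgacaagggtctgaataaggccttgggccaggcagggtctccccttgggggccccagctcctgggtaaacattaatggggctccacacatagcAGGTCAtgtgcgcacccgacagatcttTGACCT
Cyp27b1, chr10:127047996-127048245, plus strand: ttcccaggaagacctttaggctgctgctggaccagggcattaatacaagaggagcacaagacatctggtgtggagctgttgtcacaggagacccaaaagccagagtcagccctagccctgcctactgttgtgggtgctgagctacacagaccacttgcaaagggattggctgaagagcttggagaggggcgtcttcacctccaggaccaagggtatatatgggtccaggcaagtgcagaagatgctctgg
The Slc34a1 window held GTTAAT at 2 places, 89 to 84 and 61 to 56 bases before the start, on opposite strands. The Slc34a3 window held AGGTCA at 2 places, 33 to 28 and 6 to 1 bases before the start, also on opposite strands. The Cyp27b1 window held none of these letters. Among all 32851 promoter windows of this length, 6.43% held GTTAAT, 14% held AGGTCA, 12.4% held TATAAA and 0.0396% held a DR3 element. The only other windows of these 8 genes with a match were those of Slc20a1, which has 2 annotated starts with 1 AGGTCA each. GENCODE M21 places the start of Slc34a1 further upstream, at 55398187, so the window shown belongs to RefSeq's start. For Slc34a3, on the minus strand, it places the start at 25234364, inside the window, so both AGGTCA matches lie within the GENCODE gene. A match describes letters and not a bound site.

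Levels in the kidney were led by Slc34a1. Divided by the exon length of each gene, Slc34a1 averaged 973 ± 77.2 CPM per kb in DKO and 684 ± 40.9 CPM per kb in WT (SD, n = 4 and 3), more than any of the other 9 genes in every library. In DKO libraries the order per length began with Slc34a1, Cyp24a1 (68.3 ± 52.9), Pth1r (61.5 ± 4.27) and Slc9a3r1 (56.9 ± 5.25 CPM per kb). Vdr (51.5 ± 3.21), Kl (38.3 ± 6.60) and Slc34a3 (24.6 ± 5.36 CPM per kb) came next, and the ranges of Vdr and Kl, and of Kl and Slc34a3, did not overlap. Cyp27b1 (22.2 ± 19.7) and Slc20a1 (17.5 ± 6.17 CPM per kb) overlapped with each other, and Slc20a2 (5.14 ± 0.960 CPM per kb) had the lowest mean, although Cyp27b1 was below it in DKO replicate 4.

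**Figure D1:**
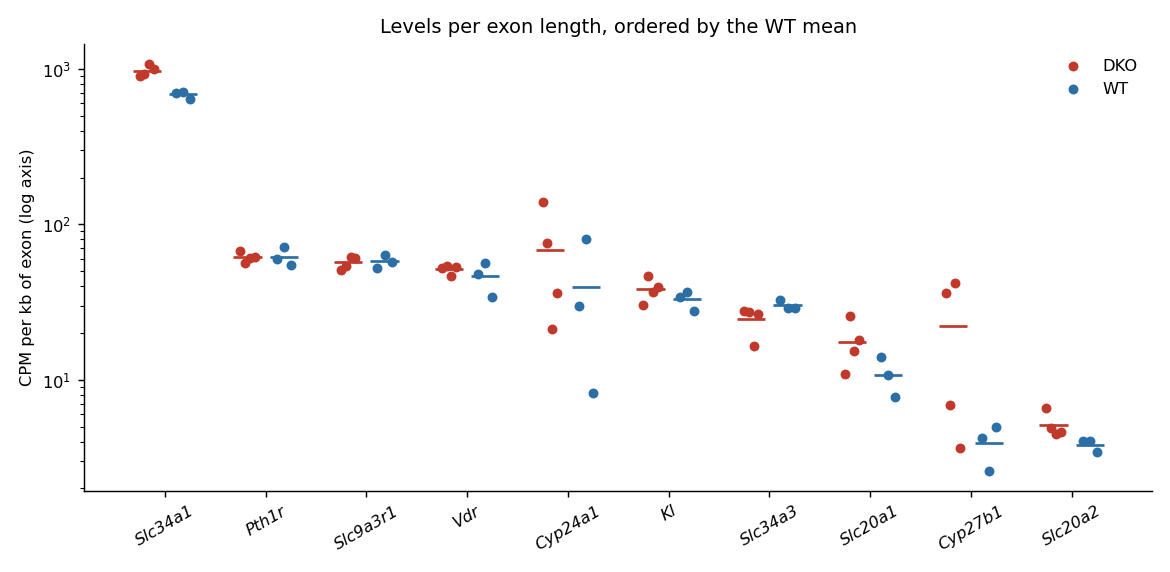
Level of each gene per exon length, in CPM per kb on a log axis, with 1 point per library, DKO red and left, WT blue and right, and a bar at each group mean. Slc34a1 lies above every other gene in all 7 libraries (973 CPM per kb in DKO and 684 CPM per kb in WT on average), and Cyp24a1 and Cyp27b1 have the widest spread.

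In WT libraries Slc34a1 was followed by Pth1r (62.0 ± 8.36), Slc9a3r1 (58.0 ± 5.63), Vdr (46.2 ± 11.0), Cyp24a1 (39.4 ± 36.9), Kl (32.9 ± 4.56) and Slc34a3 (30.2 ± 2.08 CPM per kb). Neighbours in this order overlapped in their ranges from Pth1r down to Slc34a3, so adjacent genes are not separated from the spread between animals, although Pth1r and Slc9a3r1 lay wholly above Kl and Slc34a3. A gap then led to Slc20a1 (10.8 ± 3.17), and another to Cyp27b1 (3.95 ± 1.22) and Slc20a2 (3.83 ± 0.333 CPM per kb), which overlapped each other.

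Slc34a1 (ENSMUSG00000021490, chromosome 13, positions 55398187 to 55415592 on GRCm38, plus strand, 13 merged exons) encodes the main apical phosphate carrier of the proximal tubule. It was at 4176, 4359.9, 5001 and 4661 CPM in DKO replicates 1 to 4, against 3286, 3329 and 2979 CPM in WT replicates 1, 2 and 4. Every DKO library lay above every WT library, and DKO replicate 3 was highest. The fitted difference was 1.42-fold (log2 fold change 0.51), and its log2 value lay between 0.46 and 0.55 when any 1 library was left out. These values describe a gene chosen for this difference and do not test it. In bulk tissue, more cells of a type and more RNA per cell cannot be told apart, and this holds for every result below. Slc34a1 shares 545 exon bases with Pfn3 on the opposite strand, whose row held at most 0.454% as many reads.

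Proximal tubule markers give the setting for that difference. The summed CPM of 11 markers of the first and second segments ran from 7633 to 9805 in DKO and from 7794 to 9714 in WT, with all 11 detected in every library and 9 of 11 higher in DKO by their fitted fold change. Relative to that sum, Slc34a1 stood at 42.8%, 44.5%, 65.5% and 51.0% in DKO replicates 1 to 4, against 37.5%, 34.3% and 38.2% in WT replicates 1, 2 and 4. Gatm, which encodes the first enzyme of creatine synthesis, made up 26% to 39.0% of the sum in DKO and 42.4% to 48.1% in WT, and it was 1 of the 2 markers lower in DKO (log2 fold change -0.33, edgeR adjusted p 0.418). Without Gatm the other markers summed to 5645 to 6323 CPM in DKO and 4358 to 5595 CPM in WT. Relative to that sum Slc34a1 stood at 66.0%, 72.9%, 88.6% and 78.7% in DKO replicates 1 to 4, against 72.3%, 59.5% and 68.3% in WT replicates 1, 2 and 4, and the ranges overlapped. The mean was 50.9% ± 10.3 in DKO and 36.7% ± 2.11 in WT with Gatm, and 76.5% ± 9.55 in DKO and 66.7% ± 6.56 in WT without it (SD, n = 4 and 3). The groups were thus apart on this scale with Gatm and overlapped without it, and no other marker was left out. Both scales contain Slc34a1, so they describe the chosen gene and do not test it. Pck1, which had the largest fold change of the 11 markers, stayed in both sums. It averaged 798 ± 108 CPM in DKO and 379 ± 10.5 CPM in WT (log2 fold change 1.07, edgeR adjusted p 0.163). Markers of the last proximal segment summed to 668 to 987 CPM in DKO and 441 to 1210 CPM in WT (all 8 detected in every library).

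Exon length moved with the genotype difference across the transcriptome. With genes split into 5 classes of about equal size by exon length, of the shortest (57 to 2021 nt) 26.3% were higher in DKO, and of the longest (7130 nt or more) 78.1% were. Slc34a1 has 4676 nt and belongs to the middle class, where 54.1% were higher. Its log2 fold change was 0.39 once a trend on length and GC content was taken out of each library. The cause of the trend was not tested.

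**Figure D2:**
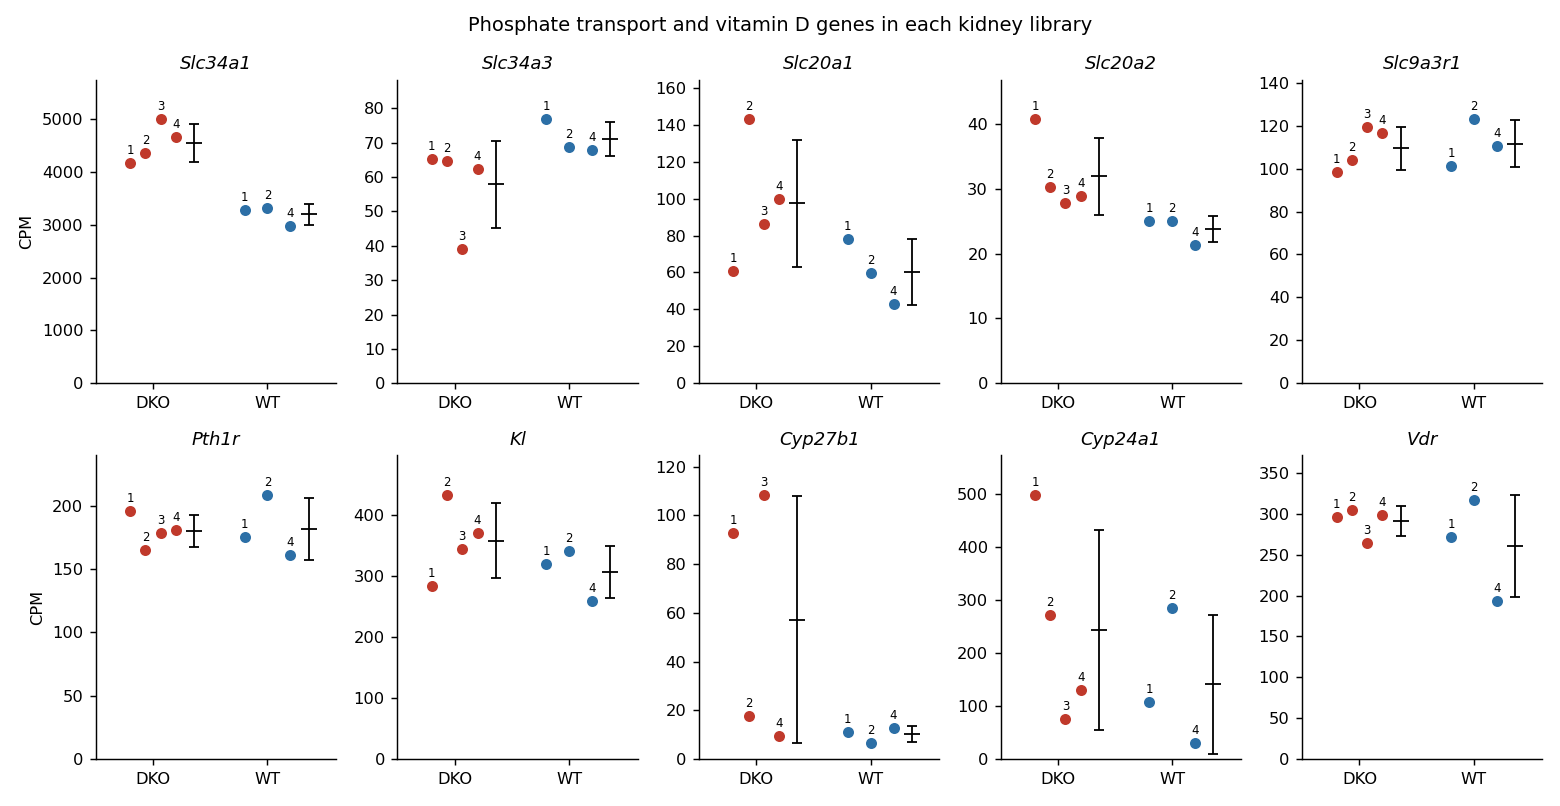
CPM of the 10 genes in every library, with the replicate number beside each point, DKO red and left, WT blue and right, and black marks for the mean and 1 SD. DKO and WT points are apart for Slc34a1, Slc34a3 and Slc20a2, while Cyp27b1 is near 100 CPM in DKO replicates 1 and 3 and under 20 CPM elsewhere.

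None of the 9 genes other than Slc34a1 reached an adjusted p under 0.05 with edgeR, whose quasi-likelihood test called 0 of 15394 genes (0%). DESeq2 called 4.37% of all genes and none of the 9, and limma-voom called 0 genes. At an unadjusted p under 0.05, 3 of the 9 were higher in DKO (Slc20a1, Slc20a2 and Cyp27b1) and 0 were lower. Among all genes tested 21.1% passed that mark, 9.86% higher and 11.3% lower. DKO and WT ranges were apart for 2 of the 9, Slc20a2 above and Slc34a3 below, where this held for 17.4% of all genes, 8.34% above and 9.04% below. Since this contrast entered the choice of genes, nothing is read from these counts. The median log2 fold change was 0.32 over the 10 genes and 0.22 over the 9 other than Slc34a1, against 0.04 over all genes tested. After removal of a trend on length and GC content it was 0.18 over the 10 genes, against -0.0090 over all genes tested. For the same reason these medians are descriptions only.

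Slc34a3 (ENSMUSG00000006469, chromosome 2, positions 25228898 to 25234364, minus strand, 14 merged exons), the second brush-border cotransporter, had a lower mean in DKO, a difference that did not pass the test. It was at 65.4, 64.8, 39.1 and 62.5 CPM in DKO replicates 1 to 4, against 76.8, 68.7 and 68.0 CPM in WT replicates 1, 2 and 4. All DKO values were below all WT values, but 3 of them by little, and DKO replicate 3 stood far below the rest. Its log2 fold change was -0.30 (SE 0.19, edgeR adjusted p 0.376), and it was -0.14 without DKO replicate 3.

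Per exon length, the ratio of Slc34a1 to Slc34a3 was 32.2, 33.9, 64.6 and 37.6 in DKO replicates 1 to 4, against 21.6, 24.4 and 22.1 in WT replicates 1, 2 and 4. The ratio averaged 42.1 ± 15.2 in DKO and 22.7 ± 1.53 in WT (SD, n = 4 and 3). DKO replicate 3, which had the highest Slc34a1 and the lowest Slc34a3, set the upper end. Of the summed per-length level of the 4 carriers, Slc34a1 made up 95.3% ± 1.05 in DKO and 93.9% ± 0.503 in WT, and Slc34a3 made up 2.44% ± 0.652 in DKO and 4.15% ± 0.255 in WT. Since Slc34a1 was chosen for its higher level in DKO, the ratio and these shares are descriptions only.

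**Figure D3:**
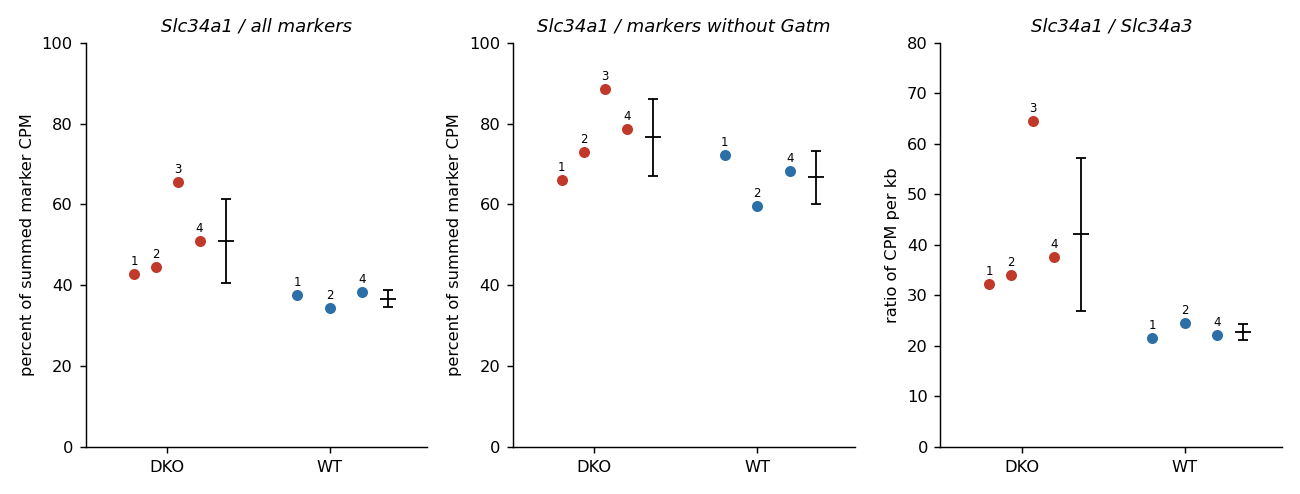
Slc34a1 CPM as a percentage of the summed CPM of 11 first and second segment markers (left) and of the same markers without Gatm (middle), and the ratio of Slc34a1 to Slc34a3 in CPM per kb (right), for each library with its replicate number and the mean and 1 SD in black, DKO left and WT right in each panel. DKO and WT points are apart in the left and right panels and overlap in the middle panel, where DKO replicate 1 (66.0%) lies below WT replicate 1 (72.3%). Every panel contains Slc34a1, which was chosen for its higher level in DKO, so the panels are descriptions only.

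The type III carriers PiT-1 (Slc20a1) and PiT-2 (Slc20a2) are expressed in most cell types and made up small shares of the carrier transcripts. Slc20a1 (ENSMUSG00000027397, chromosome 2, positions 129198764 to 129211616) was at 60.7, 143, 86.0 and 100 CPM in DKO replicates 1 to 4, against 78.3, 59.6 and 43.0 CPM in WT replicates 1, 2 and 4. The other DKO libraries exceeded all WT libraries, whereas DKO replicate 1 lay within the WT range. Its log2 fold change was 0.69 (SE 0.29, edgeR adjusted p 0.213), and it was 0.45 without DKO replicate 2. Slc20a1 shares 452 exon bases with the opposite-strand transcript 9830144P21Rik, whose row held up to 19.9% as many reads, and the libraries do not mark strand.

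Slc20a2 (ENSMUSG00000037656, chromosome 8, positions 22476788 to 22569612) was at 40.8, 30.3, 27.8 and 28.9 CPM in DKO replicates 1 to 4, against 25.0, 25.0 and 21.4 CPM in WT replicates 1, 2 and 4. The groups did not overlap, and DKO replicate 1 was highest. The difference did not pass adjustment over all genes (log2 fold change 0.42, SE 0.17, edgeR adjusted p 0.205), and it was 0.28 without DKO replicate 1 and 0.25 after removal of the length and GC trend. It shares 95 exon bases with Smim19 on the opposite strand, whose row held up to 61.5% as many reads. Its 6216 nt of exons place it in the class of 4800 to 7129 nt, in which 66.5% of genes were higher in DKO.

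For the scaffold and the parathyroid hormone receptor the ranges of DKO and WT overlapped. Slc9a3r1 (chromosome 11, positions 115163341 to 115181181), the PDZ protein that holds NaPi-IIa at the brush border, was at 98.2, 104, 119 and 116 CPM in DKO, against 101, 123 and 111 CPM in WT. Its log2 fold change was -0.03 (SE 0.15, edgeR adjusted p 0.930), with a sign that depended on which library was left out and on the length and GC trend. Pth1r (chromosome 9, positions 110722085 to 110747145), the receptor for parathyroid hormone, was at 196, 165, 178 and 180.5 CPM in DKO, against 175, 208 and 161 CPM in WT. The ranges overlapped widely (log2 fold change -0.01, SE 0.16, edgeR adjusted p 0.973), and this sign also turned when single libraries were left out.

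Kl (chromosome 5, positions 150952607 to 150993817), which encodes the FGF23 co-receptor Klotho and is also among the distal convoluted tubule markers, was at 284, 433, 344 and 369.9 CPM in DKO, against 320.1, 342 and 259 CPM in WT. DKO replicate 1 lay within the WT range and the other DKO libraries above it. The log2 fold change was 0.22 (SE 0.19, edgeR adjusted p 0.507) and turned to -0.02 after removal of the length and GC trend. Kl has 9328 nt of exons, in the longest class. The 5 distal convoluted tubule markers, Kl included, summed to 829 to 1027 CPM in DKO and 776 to 964 CPM in WT.

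Vdr (chromosome 15, positions 97854425 to 97910630), the nuclear receptor for the active hormone, was at 296, 305, 265 and 299 CPM in DKO, against 272, 317 and 194 CPM in WT. WT replicate 4 was lowest of all, and the other libraries lay close together. The log2 fold change was 0.16 (SE 0.19, edgeR adjusted p 0.641) and -0.02 without WT replicate 4, and it was 0.01 after removal of the length and GC trend.

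Vitamin D hydroxylases varied more between animals than any of the 8 other genes. Cyp27b1 (ENSMUSG00000006724, chromosome 10, positions 127048250 to 127053006, plus strand, 10 merged exons), the 1-alpha-hydroxylase, was at 92.7, 17.8, 108 and 9.38 CPM in DKO replicates 1 to 4, against 10.9, 6.71 and 12.9 CPM in WT replicates 1, 2 and 4. DKO replicates 1 and 3 stood far above the other 5 libraries, DKO replicate 2 was slightly above the WT range and DKO replicate 4 was within it. The mean was 57.1 ± 50.7 CPM in DKO and 10.2 ± 3.14 CPM in WT (SD, n = 4 and 3), so the DKO mean describes no single animal well. The fitted fold change of 5.60 (log2 2.49, SE 0.95) did not pass the test (edgeR adjusted p 0.215). Its log2 value lay between 1.98 and 2.84 when any 1 library was left out. The log2 value was 1.86 in limma-voom and 1.37 with the replicate number as a block, although the labels do not say that these numbers pair the samples.

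Cyp24a1 (ENSMUSG00000038567, chromosome 2, positions 170482708 to 170497145, minus strand, 12 merged exons), the 24-hydroxylase that degrades the hormone, was at 497, 271, 75.1 and 129 CPM in DKO replicates 1 to 4, against 107, 285 and 29.1 CPM in WT replicates 1, 2 and 4. The highest library held 17.1 times the level of the lowest, and the groups overlapped. Its log2 fold change of 0.79 (SE 0.92, edgeR adjusted p 0.645) rested on single animals, with 0.18 without DKO replicate 1, 0.31 without WT replicate 4 and 1.84 without WT replicate 2. Cyp24a1 shares 83 exon bases with the opposite-strand gene Pfdn4, whose row held up to 61.5% as many reads.

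Set side by side, the hydroxylases did not follow a single opposite order. DKO replicate 3 combined the highest Cyp27b1 of all libraries with a Cyp24a1 level among the lower ones, whereas DKO replicate 1 had high levels of both. The WT libraries ran in opposite order, with Cyp27b1 lowest and Cyp24a1 highest in replicate 2 and the reverse in replicate 4. The ratio of Cyp27b1 to Cyp24a1 in CPM was 0.186, 0.0657, 1.44 and 0.0725 in DKO replicates 1 to 4, against 0.103, 0.0235 and 0.442 in WT replicates 1, 2 and 4, and DKO replicate 3 was the only library above 1.

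**Figure D4:**
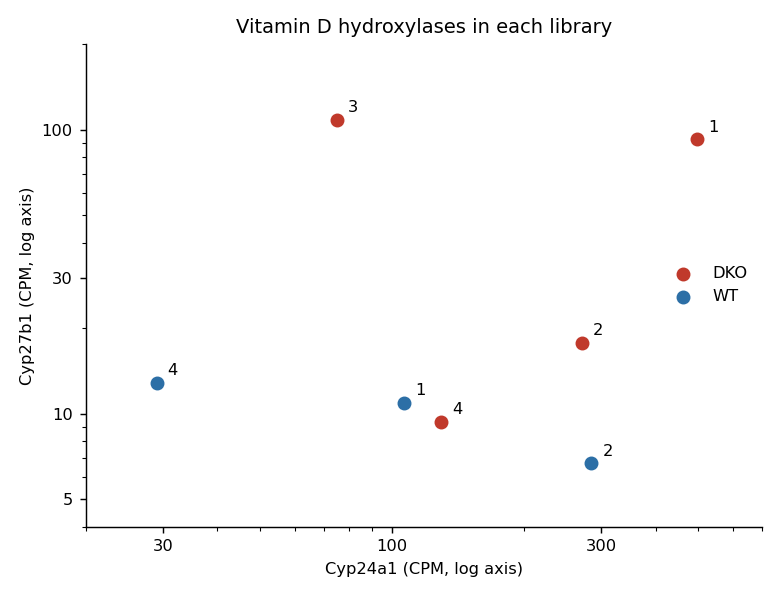
Cyp27b1 against Cyp24a1, both in CPM on log axes, with 1 point per library, DKO red, WT blue and the replicate number beside each point. DKO replicates 1 and 3 share high Cyp27b1 (92.7 and 108 CPM) but lie at opposite ends of the DKO range of Cyp24a1 (497 and 75.1 CPM).

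Among the 10 genes, 7 had a highest library under 2 times the lowest. The coefficient of variation between animals was above 20% for 4 genes in DKO (Slc34a3, Slc20a1, Cyp27b1 and Cyp24a1) and for 4 in WT (Slc20a1, Cyp27b1, Cyp24a1 and Vdr). Slc34a1 was among the steadiest, at 7.94% in DKO and 5.98% in WT.

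Other genes of phosphate and vitamin D biology were read from a list of 44 genes in 6 role groups. Of the 40 tested, edgeR called 0 in either direction after adjustment and DESeq2 called 1 (Cubn), against 4.37% of all genes by DESeq2. At an unadjusted p under 0.05, 5 were higher and 2 lower, where 21.1% of all genes passed, and DKO and WT ranges were apart for 9, where 17.4% of all genes were apart. These shares are near those of all genes. Their median log2 fold change was 0.26, with 29 higher and 11 lower, against 8195 higher and 7199 lower among all genes, and the median was 0.12 after removal of the length and GC trend. Fgf23 and Pth, which encode hormones made in bone and parathyroid, received 0 reads in every library, which allows at most 0.122 to 0.159 CPM depending on depth. Phex and Dmp1 were also too scarce to test.

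None of the 3 other carriers and 1 of the 5 scaffold partners had an unadjusted p under 0.05. Slc25a3, the mitochondrial phosphate carrier, averaged 982 ± 90.5 CPM in DKO and 1049.7 ± 196 CPM in WT, and Xpr1, the phosphate exporter, averaged 19.8 ± 4.91 CPM in DKO and 15.5 ± 0.944 CPM in WT. Pdzk1, a PDZ scaffold of the brush border, was at 875 ± 118 CPM in DKO and 782 ± 113 CPM in WT. Pdzk1ip1, a small membrane protein that binds it, was at 603, 414, 423 and 482 CPM in DKO replicates 1 to 4, against 607, 627 and 766 CPM in WT replicates 1, 2 and 4. Its DKO values were all below its WT values, narrowly for DKO replicate 1 (log2 fold change -0.47, SE 0.19, edgeR adjusted p 0.198), and its 1778 nt of exons place it in the shortest class.

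In the FGF23 and parathyroid hormone group 0 of 10 tested genes passed adjustment in edgeR, and 2 (Gnaq and Gnas) had an unadjusted p under 0.05. The fold change was positive for 9 of the 10, where it was positive for 8195 of 15394 genes overall and more often in long genes, as given above. Gna11 and Gnaq, G protein subunits that couple to receptors such as Pth1r, averaged 97.0 ± 2.48 and 48.6 ± 8.01 CPM in DKO, against 87.2 ± 2.01 and 33.9 ± 7.51 CPM in WT. The log2 fold change of Gnaq was 0.52 (SE 0.20, edgeR adjusted p 0.189). Prkaca, the catalytic subunit of protein kinase A, was at 95.0 ± 21.5 CPM in DKO and 95.1 ± 18 CPM in WT. The Gnas row held only 0.615 to 1.10 CPM in DKO and 0.363 to 0.425 CPM in WT (edgeR adjusted p 0.179). Gnas is a locus of overlapping transcripts on both strands, so its row is uncertain.

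For vitamin D uptake, Cubn encodes cubilin, which with megalin (Lrp2) takes up vitamin D bound to its carrier protein. Cubn was at 76.1, 99.0, 100.5 and 90.3 CPM in DKO replicates 1 to 4, against 49.1, 67.7 and 64.3 CPM in WT replicates 1, 2 and 4. The groups did not overlap, and the difference did not pass edgeR's test (log2 fold change 0.60, SE 0.17, adjusted p 0.163). Cubn has 14935 nt of exons, in the longest class. Lrp2 averaged 332 ± 43.5 CPM in DKO and 280.0 ± 25.0 CPM in WT, with overlapping ranges. Gc, the vitamin D binding protein, averaged 216 ± 114 CPM in DKO and 107 ± 45.4 CPM in WT (log2 fold change 1.02, SE 0.46, edgeR adjusted p 0.246).

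Distal calcium genes that respond to vitamin D included none past adjustment, and 4 of 6 had a positive fold change. S100g, the small cytosolic calcium buffer calbindin-D9k, was at 709.5, 365, 241 and 390.5 CPM in DKO replicates 1 to 4, against 482, 743 and 1852 CPM in WT replicates 1, 2 and 4. WT replicate 4 was far above the rest, DKO replicate 1 lay within the WT range, and the other DKO libraries lay below it (log2 fold change -1.27, SE 0.48, edgeR adjusted p 0.198). S100g has only 480 nt of exons. Calb1, calbindin-D28k, averaged 914 ± 284 CPM in DKO and 990.4 ± 337 CPM in WT.

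Among regulators known from inherited mineral disorders, Alpl, the tissue-nonspecific alkaline phosphatase, averaged 312 ± 64.1 CPM in DKO and 218 ± 24.1 CPM in WT, with ranges apart (log2 fold change 0.52, SE 0.19, edgeR adjusted p 0.180). Enpp1, which makes pyrophosphate, averaged 41.3 ± 15.5 CPM in DKO and 25.0 ± 6.62 CPM in WT (log2 fold change 0.72, SE 0.30, edgeR adjusted p 0.207), and its ranges overlapped. For both genes DKO replicate 3 was highest, as it was for Slc34a1.

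**Figure D5:**
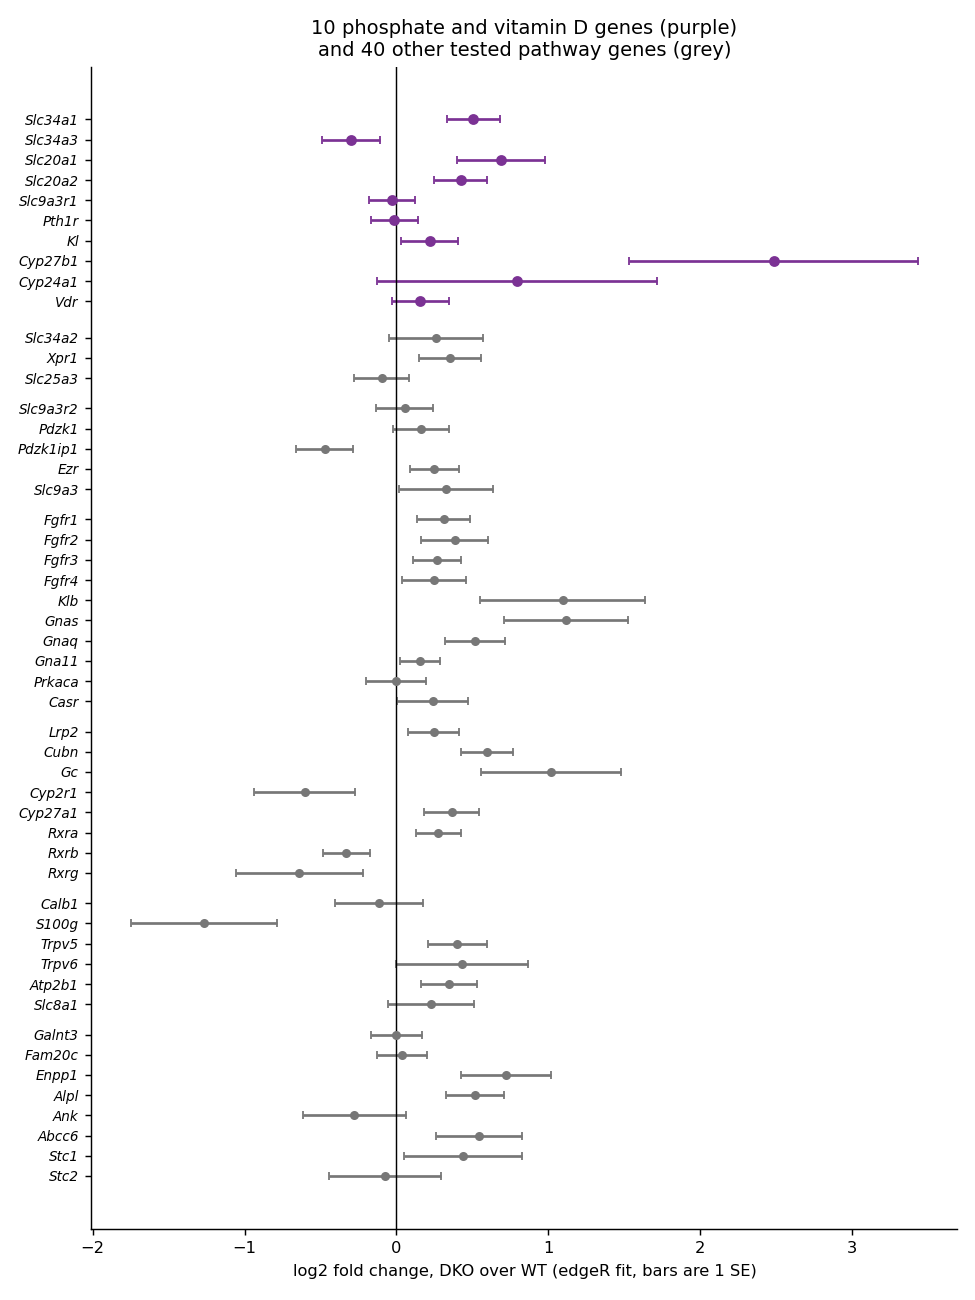
Log2 fold change of DKO over WT from the edgeR fit with bars of 1 SE, for the 10 genes (purple) and the 40 other tested phosphate and vitamin D genes (grey), in role groups from top to bottom. Most points lie right of 0, and Cyp27b1 and Cyp24a1 have the widest bars (SE 0.95 and 0.92). None of the genes shown was called by edgeR. Slc34a1 was chosen for its difference, so its point is a description and not a test.

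By profile over the 7 libraries the genes closest to Slc34a1 were Podxl, Celf1, Pnpla6, Lrrc8a and Pias1. Likeness was the root mean square difference of log2 CPM after centring each gene on its own mean, and it was 0.0508 for Podxl, 0.0553 for Celf1 and 0.0620 to 0.0630 for the others, on the log2 scale. Podxl, the podocyte surface protein podocalyxin, averaged 53.3 ± 3.41 CPM in DKO and 37.0 ± 3.49 CPM in WT, and Lrrc8a, a subunit of volume-regulated anion channels, averaged 916 ± 117 CPM in DKO and 637 ± 44.6 CPM in WT. None of the other 9 phosphate and vitamin D genes was close by this measure. Kl ranked 2246 among 15393 genes (0.230) and Slc20a2 2475 (0.236), while Slc34a3 ranked 10711 (0.513) and Cyp27b1 15287 (1.36).

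Markers of other cell types were detected throughout. Thick ascending limb markers summed to 4289 to 6621 CPM in DKO and 6038 to 9704 CPM in WT (4 of 6 lower), and intercalated cell markers to 180 to 242 CPM in DKO and 223 to 398 CPM in WT (5 of 5 lower). Umod was the largest part of the thick ascending limb sum, at 3991 ± 994 CPM in DKO and 6412 ± 1647 CPM in WT. Slc12a1 and Ppp1r1b of that list had a higher mean in DKO. Atp6v1g3 was the largest part of the intercalated cell sum, at 74.7 ± 11.7 CPM in DKO and 147 ± 83.7 CPM in WT. That sum was 398 CPM in WT replicate 4, against 267 and 223 CPM in WT replicates 1 and 2. Leukocyte markers summed to 49.1 to 130 CPM in DKO and 106 to 228 CPM in WT (5 of 6 lower), and podocyte markers to 99.7 to 128 CPM in DKO and 84.4 to 96.0 CPM in WT (4 of 5 higher). Lyz2 was the largest part of the leukocyte sum, at 65.6 ± 29.8 CPM in DKO and 132 ± 61.1 CPM in WT. The DKO and WT sums overlapped for the thick ascending limb, intercalated cell and leukocyte lists, and were apart for the podocyte list. Sums also overlapped between DKO and WT for principal cells (673 to 1264 and 620 to 924 CPM), endothelium (130 to 186 and 123 to 157 CPM) and stroma (242 to 413 and 262 to 380 CPM). Of 62 listed markers, Avpr2 of the principal cell list was the only one at 0 reads in any library. The part of these lists in the values given above was not tested.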

How the data were processed

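Kidney RNA was made into libraries with a kit that does not mark strand, per the labels' protocols. Reads were aligned with STAR 2.5.2a, per the submitters' processing notes, which also list edgeR, limma, DESeq2, GRCm38 (mm10) and GRCh38 without roles. The counter, annotation release and strand option are not stated there. The authors deposited raw counts per gene and a filtered count table (18797 rows, all identical to rows of the first). They also deposited a TMM-scaled CPM signal table, used for symbols and for 1 alternative. The 24 rows other than Ensembl genes held at most 7.30e-04% of a library's counts and entered no library size or test.

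DKO was compared with WT on raw counts with edgeR 4.0.16 (R 4.3.3), TMM scaling and the robust quasi-likelihood F test. The filterByExpr filter (minimum count 10, minimum total 15) left 15394 genes, over which p-values were adjusted by Benjamini-Hochberg (threshold 0.05). An SE is the log2 fold change divided by the root of F. Log2 CPM used a prior count of 2. For 0 reads, 3 counts were taken as the limit, which covers counting error only. Lengths (merged exons), GC and positions are those of GENCODE M21 (GRCm38), found for 48349 of 48709 genes. Libraries differed by a chi-square per gene of 40.8 to 207 in every pair, so none is a repeat. The highest values, 149 to 207, were those of WT replicate 4 with the DKO libraries.

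The 10 genes, the 44 others and the marker lists were chosen with earlier results of these data known. Named genes were the 10, from each role group those at an unadjusted p under 0.05 and the 2 with the highest mean CPM, and the 5 most like Slc34a1. Alternatives were DESeq2 1.42.0, limma-voom (limma 3.58.1), DESeq2 size factors, no filter, a length and GC trend removed, a replicate block, the deposited CPM with a pseudocount of 1, and leaving out each library. The tests were also run on simulated counts with planted changes, drawn without a length trend. The share recovered is not given here, so the run says nothing on the power of these tests in the kidney data.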

Additional observations from a re-analysis of the deposited data

Results flagged for a closer look

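Among the 4 DKO libraries, 1 stood apart from the other 3 for 4 of the 57 genes examined, at a gap that chance gives in about 1 of 20 groups. Slc34a3 was at 39.1 CPM in DKO replicate 3, against 62.5 to 65.4 CPM in the other DKO libraries. Cyp2r1, a vitamin D 25-hydroxylase, was at 1.84 CPM in DKO replicate 3, against 1.52 to 1.55 CPM in the others, a small difference at a low level. The sodium calcium exchanger Slc8a1 was at 17.1 CPM in DKO replicate 4, against 8.03 to 8.44 CPM, and Abcc6, a transporter linked to ectopic calcification, was at 7.66 CPM in DKO replicate 4, against 11.1 to 11.8 CPM. WT, with 3 libraries, was not examined in this way.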

How the results depend on the processing

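Of the 9 genes other than Slc34a1, 0 were called under any alternative. Over all 10 the DESeq2 count is 1, which comes from the gene chosen for its difference and is no test of it. Of the other phosphate and vitamin D genes DESeq2 called 1, Cubn (adjusted p 0.0385, log2 fold change 0.58), and no other alternative called any. Over all genes DESeq2 called 672 and edgeR with no low-count filter 66. With 1 library left out edgeR called 0 to 7 genes, 7 without DKO replicate 1 and 1 without WT replicate 2. At an unadjusted p under 0.05, edgeR had 3250 genes with all libraries and 1582 without WT replicate 4. It had 2986 without WT replicate 1, 3655 without WT replicate 2, and 2075 to 3796 without any 1 DKO library. The shares of all genes at that mark therefore lean on WT replicate 4 more than on any other library. The labels do not say that equal replicate numbers mark paired samples. Correlations of same-numbered deviations were -0.13, 0.16 and 0.14 for numbers 1, 2 and 4. Those of differently numbered libraries ran from -0.23 to 0.16. With so few libraries these values cannot decide whether the numbers pair the samples. The replicate block left 0 genes called, and 1 with the length and GC trend also removed. With the block Cyp27b1 was at 1.37 and Cyp24a1 at 1.46 (log2). Signs turned for genes near 0. With the length and GC trend removed Slc9a3r1 was at 0.106 and Kl at -0.0241, and with the replicate block as well Slc9a3r1 was at 0.0444, Pth1r at 0.0130 and Kl at -0.0046. Leaving out 1 library moved Slc9a3r1 between -0.108 and 0.0360, Pth1r between -0.0943 and 0.0892 and Vdr between -0.0191 and 0.313. The other 6 genes kept their direction in all 15 alternatives. Slc34a1 was at 0.39 with the length and GC trend removed and 0.34 with the block added, and its WT share of the 4 carriers was 95.4% in plain CPM. Without Gatm, an alternative chosen after seeing the data, Slc34a1 averaged 76.5% of segment marker CPM in DKO and 66.7% in WT, against 50.9% in DKO and 36.7% in WT with it. The causes were not tested. The smallest adjusted p among all genes in edgeR was 0.163.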
